A study of Caenorhabditis elegans with 6 samples.

Results

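The genes of trehalose metabolism were compared between Caenorhabditis elegans that lived on the International Space Station and worms kept on the ground. The members were the 8 genes tps-1, tps-2, gob-1 and tre-1 to tre-5, taken by gene symbol from the annotation of the array, and all 8 were found. They were read by 10 of the 22548 probe sets tested, which stand for 8 of 17118 named genes. A probe set is a group of short array probes read as 1 value. For 5 of the 10 the name carries a mark of probes shared with further sequences.

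Both groups were wild-type CC1 worms, kept without bacteria in the culture medium CeMM. The flown worms, of mixed developmental stages, were moved automatically into fresh medium about every 1 month for up to 10 generations, and the ground worms were passaged in parallel. RNA of whole worms was read on 6 Affymetrix arrays, 3 space and 3 ground, which the labels call technical replicates. How many cultures or RNA extracts stand behind a group is not stated in the labels, so p-values reflect array-to-array spread alone, which may be technical.

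Trehalose is a sugar of joined glucose units that nematodes store and use to withstand drying, freezing and osmotic stress. Trehalose-6-phosphate synthase joins UDP-glucose to glucose-6-phosphate, and a phosphatase then removes the phosphate to leave trehalose. Trehalases cut trehalose back to glucose. In C. elegans tps-1 and tps-2 encode the synthases, gob-1 encodes the phosphatase, whose loss blocks the gut of the larva, and tre-1 to tre-5 encode trehalases. Worms with reduced insulin signalling and dauer larvae are known for high trehalose.

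Of the 10 member probe sets, 1 passed the test, that of the trehalase gene tre-5, which rose on the space arrays. A call here means an adjusted p under 0.05 in limma, with Benjamini-Hochberg adjustment over all 22548 probe sets, and a difference of at least 2-fold on the scale log2(intensity + 16). Over all probe sets 7.31% had a call, 5.15% upward and 2.16% downward, so 1 call among 10 probe sets is near that background. Both synthase genes were lower on every space array than on any ground array, by less than 2-fold, and neither passed. The groups did not overlap in 7 of the 10 probe sets, which read 5 genes, against 30.2% of all probe sets. The intensities of the members lay between 159 and 7549, above the brightest of 8 controls for sequences absent from worms (86.7) on every array.

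**Figure D1:**
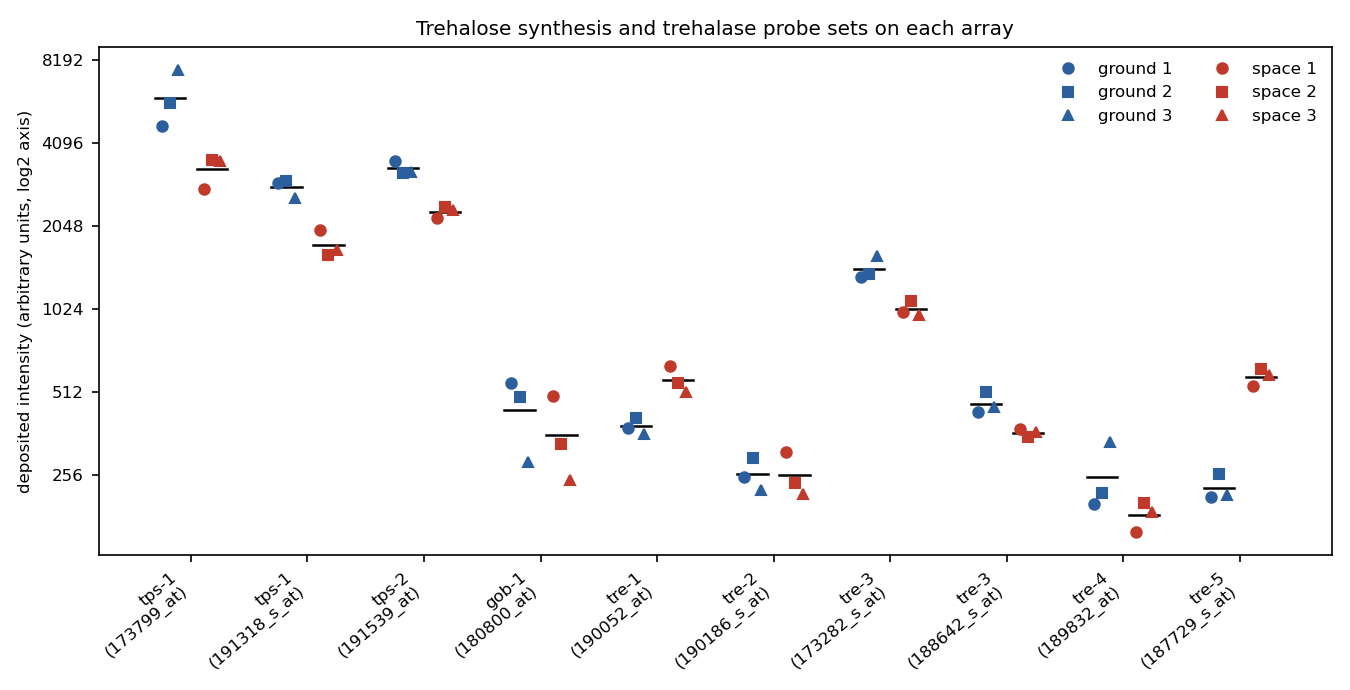
Deposited intensity (log2 axis, arbitrary units) of each of the 10 probe sets of the 8 trehalose genes on the 3 ground arrays (blue) and the 3 space arrays (red); marker shapes are replicate numbers and black bars are group means. The tre-5 space arrays lie between 536 and 622, above the ground arrays at 212 to 258, while on the deposited scaling both tps-1 probe sets and tps-2 are lower on the space arrays without overlap.

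The arrays differed in ways that bear on every value below. The 24 poly-A control probe sets, which read bacterial RNAs of a kind usually added to the sample before labelling, were dimmer in the space group. Their mean log2 intensity was 10.15 ± 0.290 there and 11.11 ± 0.06004 in the ground group (SD, n = 3 each), a difference of -0.96. In 22 of the 24 the groups did not overlap. The amount added to each sample is not stated in the labels, so how far the deposited scaling, which set the trimmed mean of each array to about 500, offset a true difference in RNA was not tested. The 18 hybridisation controls differed by -0.44 on average, with overlap. The 5′ signal of actin relative to its 3′ signal, a measure of RNA integrity, was -3.12 ± 0.164 (log2) in the space group and -3.97 ± 0.358 in the ground group, without overlap. The same ratio for Gapdh was -1.50 ± 0.561 against -2.13 ± 1.41, with overlap. All 8 germline markers rose, with a summed intensity of 10097 to 10666 in the space group against 3863 to 4662 in the ground group. Of 7 sperm markers 3 rose, with sums of 1306 to 1411 against 557 to 635. The sums were lower in the space group without overlap for 7 neuron markers (23064 to 25410 against 28521 to 30941, 1 fell), 7 epidermis markers (4280 to 4655 against 5240 to 6017, 1 fell) and 6 body-wall muscle markers (10932 to 13280 against 15660 to 18560, 1 rose). Those of 9 intestine markers overlapped, at 27161 to 33062 against 24104 to 32861. The intestine sum was mostly that of asp-1, at 19630 in the space group against 21614 in the ground group. Of the 9 intestine markers 0 had a call, while 3 were higher and 2 lower without overlap. The brightest epidermis marker was sqt-3 (2002 against 2998) and the brightest neuron marker snb-1 (9569 against 12765), both without a call. Of the 7 epidermis markers 3 were higher, and of the 7 neuron markers 2. The muscle sum was mostly that of unc-15, at 6987 in the space group against 11839 in the ground group, without a call. Of the 6 muscle markers 2 were higher, and the 1 that rose was myo-3 (552 against 175). Both group means lay above the brightest control for absent sequences in 3 of 7 epidermis, 5 of 6 muscle and 4 of 7 sperm markers. The epidermis marker that fell, rol-6, had a space mean of 39.3, below that control. The part of these differences in the results for the trehalose genes was not tested, and in RNA from whole worms fewer cells of a type and less RNA per cell cannot be told apart.

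The 2 probe sets of the synthase gene tps-1 both stood lower on the space arrays. The brighter, 173799_at, read 2796, 3549 and 3536 on space replicates 1, 2 and 3, and 4726, 5730 and 7549 on ground replicates 1, 2 and 3. Every space array was lower than every ground array, and the highest ground value, on replicate 3, was far above the other ground values. The log2 fold change was -0.84 ± 0.25 (SE, 95% interval -1.41 to -0.28, adjusted p = 0.074, limma), which did not pass. The other probe set, 191318_s_at, is marked in its name as sharing probes with further sequences. It read 1981, 1606 and 1679 in the space group, against 2944, 2981 and 2593 in the ground group, again without overlap. Its log2 fold change was -0.69 ± 0.20 (95% interval -1.16 to -0.23, adjusted p = 0.0747, limma). On ground replicate 3 the brighter probe set was at its highest ground value and the other at its lowest. That array also had the lowest 5′ over 3′ log2 ratios of the series, -4.30 for actin and -3.65 for Gapdh. With the mean 5′ over 3′ ratio as a covariate the values became -0.55 and -0.81, so the 2 probe sets moved in opposite directions. The actin ratio did not overlap between the groups, so this fit cannot tell RNA quality and group apart. The part of RNA quality was not tested.

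The second synthase gene, tps-2, read 2184, 2400 and 2337 in the space group, against 3544, 3206 and 3223 in the ground group. The groups did not overlap, and the spread within each was small beside the gap between the means, 2307 ± 111 and 3324 ± 190 (SD, n = 3 each). The log2 fold change was -0.52 ± 0.19 (95% interval -0.96 to -0.08, adjusted p = 0.137, limma), which did not pass. The synthase genes were lower as deposited and after quantile normalization, but turned to 0.11 and 0.26 for the tps-1 probe sets and 0.43 for tps-2 when each array was scaled to its poly-A controls. That scaling moved the median of all probe sets to 0.74. Relative to this median the synthase probe sets stood at -0.63, -0.48 and -0.31.

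The phosphatase gene gob-1 varied more between arrays of a group than between the groups. It read 496, 330 and 245 in the space group, against 550, 489 and 286 in the ground group. The groups overlapped, and replicate 1 had the highest and replicate 3 the lowest value in both. The log2 fold change was -0.30 ± 0.34 (95% interval -1.08 to 0.48, adjusted p = 0.651, limma), so these arrays leave room for a fall of just over 2-fold as well as for a small rise. The within-array difference tps-1 minus tps-2 changed by -0.32 ± 0.25 (SE, exact permutation p = 0.3, two-sided) between ground and space, tps-1 minus gob-1 by -0.54 ± 0.61 (exact permutation p = 0.5) and tps-2 minus gob-1 by -0.22 ± 0.40 (exact permutation p = 0.6). The groups overlapped in all 3 pairs, and with errors of this size equal and unequal changes of the synthesis genes cannot be told apart.

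**Figure D2:**
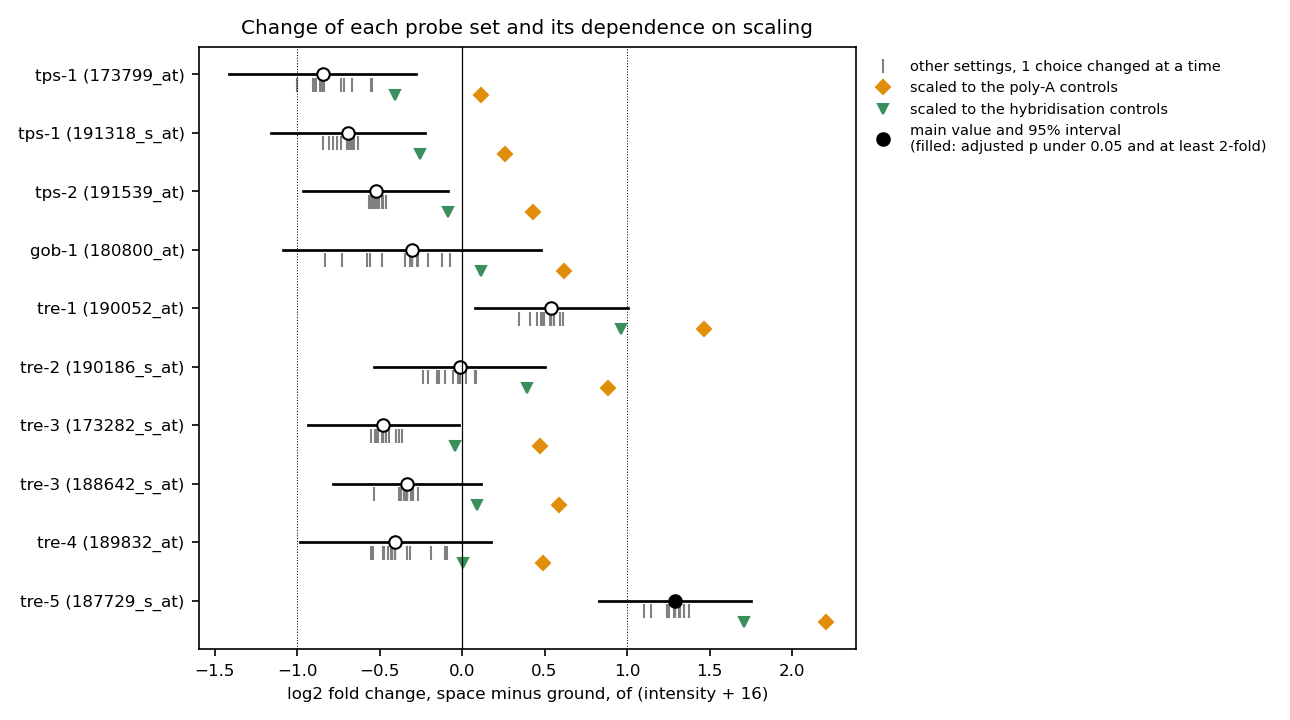
Log2 fold change of (intensity + 16), space minus ground, for each of the 10 member probe sets: circles are the main values with 95% intervals from limma, and the filled circle passed the test. Grey ticks are the other settings, with 1 choice changed at a time, and the coloured markers are values after scaling to the poly-A or hybridisation controls. The tre-5 value (1.29) stays above 1 in each, while the synthase values (-0.84, -0.69 and -0.52) lie above 0 after poly-A scaling.

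Among the trehalase genes, tre-5 read 536, 622 and 588 in the space group, against 212, 258 and 216 in the ground group. The lowest space value was more than 2-fold the highest ground value, and the means were 582 ± 43 and 229 ± 25.2 (SD, n = 3 each), a ratio of 2.55. The log2 fold change was 1.29 ± 0.20 (SE, 95% interval 0.83 to 1.75, adjusted p = 0.0105, limma), a rise exceeded by 3.42% of all probe sets. The call was lost without space replicate 2 (log2 fold change 1.24, adjusted p = 0.0532), without space replicate 3 (1.28, adjusted p = 0.0506) and without space replicate 1 and ground replicate 3 together (1.31, adjusted p = 0.0668), where limma called 0 of 22548 probe sets and 5176 had an unadjusted p under 0.05. It was also lost against a 1.5-fold minimum inside the test (adjusted p = 0.152). The single probe set of tre-5, 187729_s_at, carries the mark of shared probes, so signal of another sequence cannot be told apart from that of tre-5.

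The trehalase gene tre-1 read 638, 553 and 510 in the space group, against 379, 413 and 360 in the ground group. All space values were above all ground values, as for tre-5, and the means of 567 ± 64.9 and 384 ± 27.2 had a ratio of 1.48. The log2 fold change of 0.54 ± 0.20 (95% interval 0.08 to 1.00, adjusted p = 0.144, limma) did not pass. Scaled to the poly-A controls it was 1.47 with an adjusted p of 0.0021 (limma), past the threshold, and 0.72 above the median of all probe sets under that scaling. The same scaling called 7318 of the 22548 probe sets, 99.0% of them upward. The probe set of tre-1 carries no mark of shared probes.

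The trehalase gene tre-3 was the member of its family with lower space values on 2 probe sets, both marked as shared. On 173282_s_at it read 1001, 1093 and 974 in the space group, against 1337, 1367 and 1594 in the ground group. On 188642_s_at the space values were 374, 352 and 365 and the ground values 431, 510 and 450. Neither pair of groups overlapped, and the log2 fold changes were -0.48 ± 0.20 (95% interval -0.93 to -0.02, adjusted p = 0.184, limma) and -0.33 ± 0.19 (95% interval -0.78 to 0.11, adjusted p = 0.342, limma). Neither passed, and after scaling to the poly-A controls the values were 0.47 and 0.59. Relative to the median of all probe sets under that scaling they were -0.27 and -0.15.

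For tre-4 the space arrays read 159, 202 and 188 and the ground arrays 200, 220 and 336. The groups overlapped by a narrow margin, and the highest value was again on ground replicate 3. The log2 fold change was -0.40 ± 0.25 (95% interval -0.98 to 0.17, adjusted p = 0.377, limma). Without ground replicate 3 it was -0.19, and with the 5′ over 3′ ratio as a covariate -0.09. For tre-2 the space arrays read 310, 239 and 218 and the ground arrays 252, 294 and 225, and the means of 255 ± 48.2 and 257 ± 34.5 nearly coincided. Its log2 fold change was -0.02 ± 0.22 (95% interval -0.53 to 0.50, adjusted p = 0.978, limma), so a 2-fold change in either direction lies outside the interval on the deposited scaling.

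The trehalase genes were also compared with each other within each array, and 0 pairs passed the test. Since a factor common to an array drops out of a ratio within that array, the differences between members depend little on the scaling. On the log2 scale tre-5 minus tre-3 was 1.77 ± 0.14 higher (SE) on the space arrays than on the ground arrays, tre-5 minus tre-4 was 1.70 ± 0.25 higher, tre-5 minus tre-2 was 1.31 ± 0.20 higher and tre-5 minus tre-1 was 0.75 ± 0.15 higher. In each of these 4 pairs the 3 space arrays lay above the 3 ground arrays. Relative to tre-1, tre-3 changed by -1.02 ± 0.16, tre-4 by -0.94 ± 0.31 and tre-2 by -0.56 ± 0.07, also without overlap. The last pair without overlap was tre-3 minus tre-2, at -0.46 ± 0.23. Of 10 pairs of trehalase genes 8 did not overlap between the groups, beside 31.8% of all pairs of the 17118 genes. The pairs share members, since 7 of these 8 hold tre-5 or tre-1, and are not separate observations. With 3 arrays against 3 the exact permutation test cannot go below p = 0.1, which all 8 pairs reached, and the smallest value adjusted over 13 pairs, 3 of them of synthesis genes, was 0.1625.

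**Figure D3:**
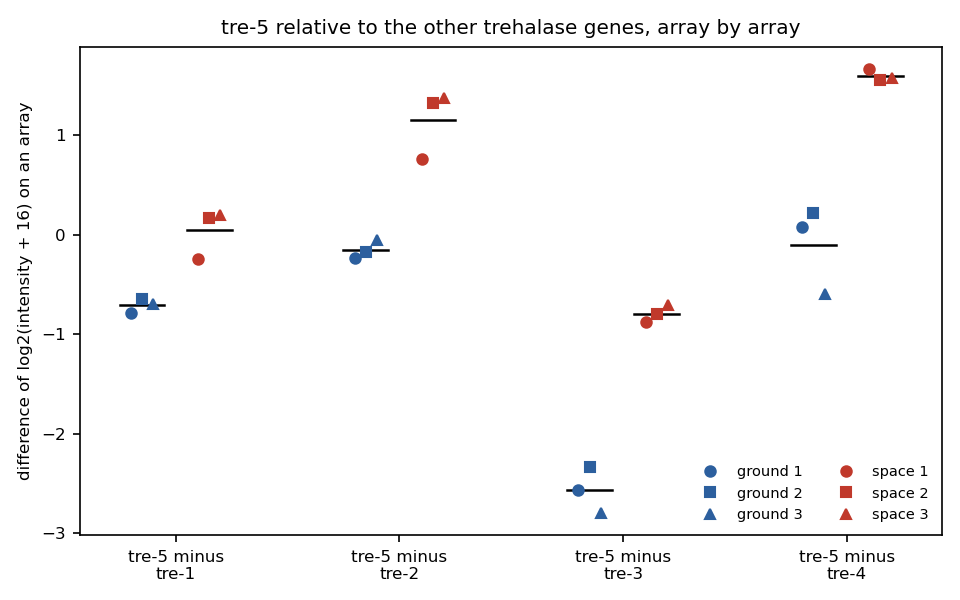
Difference of log2(intensity + 16) between tre-5 and each other trehalase gene within an array, for the 3 ground arrays (blue) and the 3 space arrays (red), with group means as bars. In all 4 comparisons the space arrays lie above the ground arrays, by means of 0.75 for tre-1 to 1.77 for tre-3; the height of a column on the axis also holds the probes' own brightness and is not a ratio of transcript amounts.

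As a description of likeness, each member called was set against 8680 other genes brighter than the median by Pearson's r over the 6 arrays. For tre-5 the closest were nhr-11, which encodes a nuclear hormone receptor (r = 0.999), glb-29, which encodes a globin (r = 0.999), and F49H6.5 (r = 0.998). In all, 591 genes had an r of at least 0.95 with tre-5. The 6 points share the split into space and ground, so any gene with a clear difference in the same direction scores highly. The group means were 1089 in the space group, against 515 in the ground group for nhr-11, 206 and 145 for glb-29, and 414 and 129 for F49H6.5.

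Genes around trehalose were read from 8 lists, of which 67 of 73 genes were measured. In these 1 rose and 6 fell, while 7.76% of all 17118 genes had a call, 5.34% upward and 2.42% downward. Their median log2 fold change was -0.05, beside -0.02 over all genes. No set test was made. Of 9 genes of glycogen metabolism, the other glucose store of the worm, 1 rose and 1 fell, with a median of 0.08. The gene that rose was gyg-1, which encodes a glycogenin, the protein primer of glycogen, at 3462, 1394 and 1409 in the space group, against 781, 637 and 535 in the ground group. Its probe set carries the mark of shared probes. Space replicate 1 stood far above the rest, the log2 fold change was 1.54 ± 0.38 (adjusted p = 0.0442, limma), and the call was lost without any 1 of the 6 arrays, with values of 1.1 to 1.76, and after quantile normalization (1.46, adjusted p = 0.0577). The gene that fell was aagr-4, one of the acid alpha-glucosidase related genes, from 486 ± 47.4 to 104.3 ± 21.7 (-2.07 ± 0.22, adjusted p = 0.00472, limma). The brightest gene of the list, aagr-3, stood at -0.61 ± 0.20 (adjusted p = 0.109, limma) on the deposited scaling. On the poly-A scaling it stood at 0.35, below the median of 0.74 for all probe sets.

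Of 8 genes that supply hexose phosphates and UDP-glucose, the substrates of the synthases, 1 fell and 0 rose, with a median of 0.06. It was the brightest, pgm-1, which encodes a phosphoglucomutase that links glucose-6-phosphate to glucose-1-phosphate. It read 2146, 2184 and 1954 in the space group, against 7220, 5909 and 6021 in the ground group. The ground values were all more than 2-fold above the space values, and the log2 fold change was -1.60 ± 0.20 (adjusted p = 0.00644, limma). Scaled to the poly-A controls, which moved the median of all probe sets to 0.74, it was -0.64 with an adjusted p of 0.0799. Scaled to the hybridisation controls, which moved that median to 0.33, it was -1.16 with an adjusted p of 0.0533. Of 11 glycolysis genes 0 rose and 0 fell (median -0.02), with the glyceraldehyde-3-phosphate dehydrogenase gene gpd-3, the brightest, at -0.38 ± 0.32 (adjusted p = 0.527), which moved to 0.0373 with the 5′ over 3′ ratio as a covariate. Of 8 genes of the glyoxylate shunt and gluconeogenesis, which make sugar from fat-derived carbon, 1 fell and 0 rose (median -0.18). It was the brightest, the phosphoenolpyruvate carboxykinase gene pck-2, with 10815, 8338 and 8925 in the space group, against 21845, 18841 and 27393 in the ground group. Its log2 fold change was -1.27 ± 0.23 (adjusted p = 0.0179, limma), and it did not pass without space replicate 2 (adjusted p = 0.0755), without space replicate 3 (adjusted p = 0.0722), with the 5′ over 3′ ratio as a covariate (-1.19, adjusted p = 0.0616), with hybridisation scaling (-0.83, adjusted p = 0.139) or with poly-A scaling (-0.31, adjusted p = 0.388), which raised the median of all probe sets.

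Of 10 genes tied to the osmolytes glycerol and inositol, 3 fell and 0 rose, with a median of -0.63. The inositol transporter gene hmit-1.1 fell from 107 ± 32.5 to 7.94 ± 5.27 (-2.35 ± 0.27, adjusted p = 0.00566, limma), a space mean below the brightest control for absent sequences (86.7). Ground replicate 1 (85.5) also lay below that control, and ground replicate 3 (90.7) just above it. The size of the hmit-1.1 difference rests on the pseudocount, with -3.77 at a pseudocount of 1 and -1.23 at 64, both of them calls. The related hmit-1.2 fell by 1.00 ± 0.22 on the log2 scale (adjusted p = 0.0309, limma), just at 2-fold, and lost its call without any 1 of the arrays other than ground replicate 3. It stood at -0.13 with poly-A scaling (adjusted p = 0.721, limma) and at -0.61 with hybridisation scaling (adjusted p = 0.314, limma). The patched-related gene ptr-23 changed by -1.15 ± 0.21 (adjusted p = 0.0173, limma), and by -0.21 with poly-A scaling, where the median of all probe sets was 0.74. It did not pass without space replicate 2 (adjusted p = 0.0757, limma) or without space replicate 3 (adjusted p = 0.0745, limma). The probe sets of hmit-1.2 and ptr-23 both carry the mark of shared probes. The brightest, osm-11, was lower at -0.95 ± 0.23 (adjusted p = 0.0432, limma), short of 2-fold, and stood at 0.01001 with poly-A scaling, below the same median. In the desiccation tolerance list 0 of 6 genes passed, with a median of 0.53. The brightest, lea-1, which encodes a late embryogenesis abundant protein, stood at 0.51 ± 0.26 (adjusted p = 0.278, limma). With poly-A scaling lea-1 passed at 1.47 (adjusted p = 0.00962, limma), and so did the sugar transporter gene swt-6 at 1.40 (adjusted p = 0.00567, limma). Under that scaling 7318 of the 22548 probe sets were called, 99.0% of them upward, and the median of all was 0.74. On the deposited scaling none of 6 sugar transporter genes passed (median -0.02, swt-6 the brightest at 0.45 ± 0.22) and none of 9 insulin signalling regulators (median -0.14, the AMP-activated kinase gene aak-2 the brightest at -0.47 ± 0.29). Of the markers of dauer larvae, col-2, col-40 and cut-6, all group means lay between 16.5 and 56.5, below the brightest control for absent sequences.

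**Figure D4:**
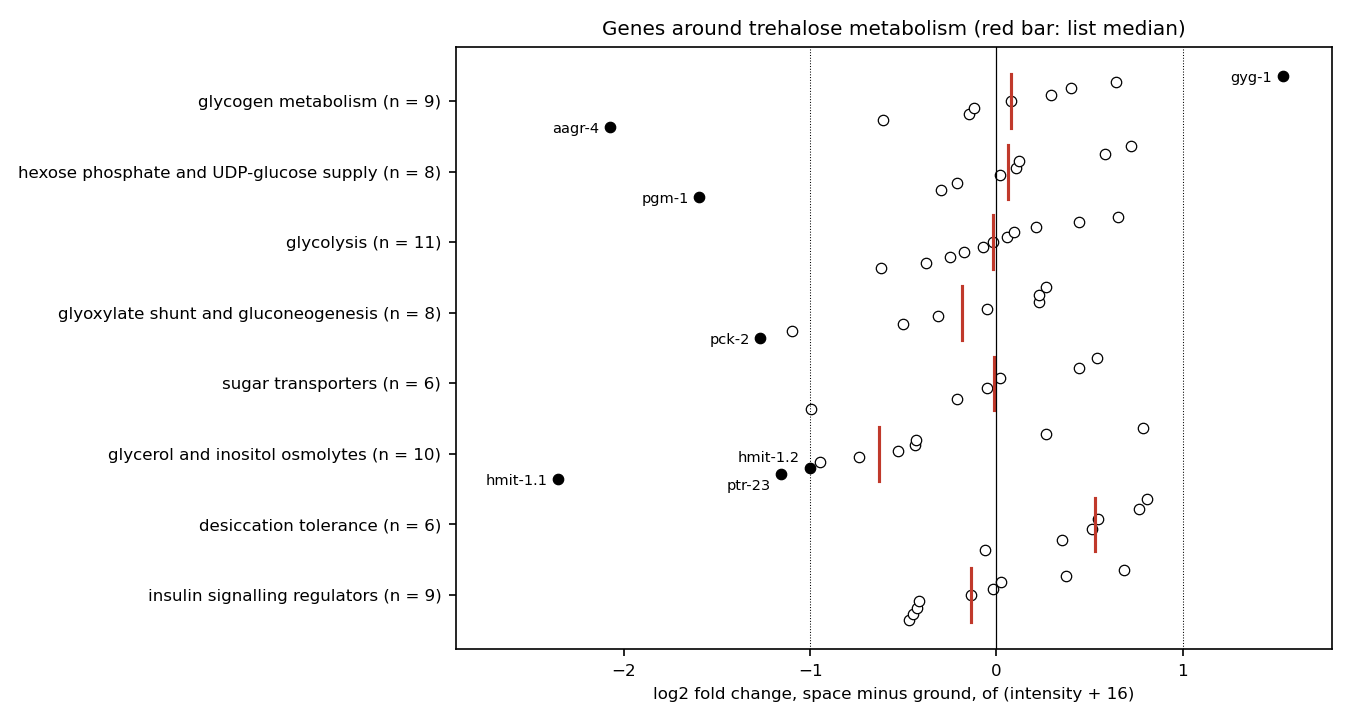
Log2 fold change of (intensity + 16), space minus ground, for the 67 measured genes of 8 lists around trehalose metabolism; filled points passed the test and are named, red bars are list medians and dotted lines mark 2-fold. On the deposited scaling 1 gene rose (gyg-1) and 6 fell, and the list medians run from -0.63 (glycerol and inositol osmolytes) to 0.53 (desiccation tolerance).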

How the data were processed

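The authors deposited a linear intensity for each probe set on each array. Their tools for summarising probes, background and scaling are not stated in the labels. Each array had a 2%-trimmed mean of 500.1 to 500.2, which shows a scaling. The 77 array controls among 22625 probe sets were not tested. Per the labels' protocols, 10 to 100 ng of total RNA was labelled. Groups and replicate numbers came from the sample titles.

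Differences of log2(intensity + 16), space minus ground, were tested with limma 3.58.1 in R 4.3.3 (lmFit, eBayes, group alone) over 22548 probe sets. The fit was also run on simulated data, with added changes larger than that of any member. That run therefore does not show how well changes of the members' size are called. Genes were named from the platform annotation, updated by gene identifier to RefSeq (assembly WBcel235): 20766 probe sets had 1 symbol, 887 several and 895 none. The brightest probe set stands for a gene. Pairs of members were compared by two-sided exact permutation tests. From each list the text names up to 4 called genes with the largest changes and the brightest, and for each called member the 3 genes most like it. Members, lists and settings were chosen with earlier results of these data known. Scaling to the poly-A and hybridisation controls was added after those controls were seen. The number of arrays limits the precision.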

Additional observations from a re-analysis of the deposited data

How the results depend on the processing

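Over 16 settings that changed 1 choice or left out arrays, tre-5 stayed between 1.1 and 1.38 and was called in 12. The number of member probe sets called, 1 at first, was 0 against a 1.5-fold minimum, 0 without space replicate 1 and ground replicate 3 together, 0 without marked probe sets, where tre-5 was not measured, and 0 to 1 when 1 array was left out. It was 2 with poly-A scaling, which added tre-1. The 7 calls among list genes became 4 without marked probe sets, 2 against the 1.5-fold minimum, 0 without both arrays, 3 to 7 when 1 array was left out, 29 with poly-A scaling and 4 with hybridisation scaling. Poly-A scaling turned tps-1 to 0.11 and 0.26, tps-2 to 0.43, gob-1 to 0.62, tre-2 to 0.89 (adjusted p = 0.019, limma), tre-3 to 0.47 and 0.59, tre-4 to 0.49, aagr-3 to 0.35, gpd-3 to 0.58, osm-11 to 0.01001 and aak-2 to 0.48. That scaling moved the median of all probe sets to 0.74. Relative to this median tre-2 stood at 0.14, gob-1 at -0.12, tre-3 at -0.27 and -0.15 and tre-4 at -0.25. Hybridisation scaling turned gob-1 to 0.12, tre-2 to 0.40, the dimmer tre-3 probe set to 0.0887, tre-4 to 0.00615 and gpd-3 to 0.0601, and moved the median of all probe sets to 0.33. The tre-2 value ran from -0.154 to 0.0856 when 1 array was left out. The gpd-3 value turned to 0.0373 with the 5′ over 3′ covariate and to 0.0798 without both arrays. Both tps-1 probe sets had adjusted p values under 0.05 in limma with a pseudocount of 64, a mean intensity of at least 50 or an intensity trend, and tps-2 with the first and the last of these, each at under 2-fold. Without ground replicate 1 the brighter tps-1 probe set was at -1.003 with an adjusted p of 0.0723. Calls over all probe sets were 1648 at first, 205 against the 1.5-fold minimum, 905 without marked probe sets, 1027 with a pseudocount of 1, 588 to 1201 when 1 array was left out, 1097 with the covariate, 0 without both arrays, 2509 with hybridisation scaling and 7318 with poly-A scaling; upward calls were 70.5% at first, 58.8% after quantile normalization, 93.9% with hybridisation and 99.0% with poly-A scaling. Deviations of same-numbered arrays correlated at 0.39, 0.06 and 0.17, and those of differently numbered arrays at -0.28 to 0.16. The numbers were not taken as pairs in the main test. With the replicate block 1 member probe set, 7 list genes and 1741 probe sets were called, and 6646 probe sets had an unadjusted p under 0.05, against 5553 without it. The number of non-overlapping pairs was 8 to 9 in all settings run. The cause of these shifts was not tested.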

Other observations

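Chosen after the values were seen, the genes closest to tre-1 and tre-3 were ranked by Pearson's r over the 6 arrays among 8680 genes. For tre-1 they were pos-1, which encodes an RNA-binding protein of the early embryo (r = 0.997, group means of 1018 in space against 555 on the ground), zif-1, which encodes a part of an embryonic ubiquitin ligase (r = 0.996, 244 and 127), and pigv-1 (r = 0.996, 575 and 319). In all, 302 genes had an r of at least 0.95 with tre-1. For tre-3 they were the glucosidase-related gene aagr-3 (r = 0.997, 2016 and 3085), K07A1.13 (r = 0.997, 854 and 1098) and F25F8.1 (r = 0.996, 255 and 354), and 157 genes reached 0.95. The points share the split into space and ground, so these lists show nothing particular to either gene.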
